A study of Caenorhabditis elegans with 2 samples.

Results

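SAEG-2 peaks were examined at 10 Caenorhabditis elegans genes that encode subunits of the NuRD and CoREST chromatin complexes. The genes are lin-53, rba-1, egl-27, lin-40, let-418, chd-3, hda-1, rcor-1, spr-1 and spr-5. They were chosen by name from what is known of the complexes, by a rule that uses no measured value, although earlier results of these data were known when the set was chosen. They are 10 of the 19973 protein-coding genes in the Ensembl annotation of the WBcel235 assembly (the ce11 build). For each gene, a peak was counted where its summit lay in the gene or in the 2000 bp upstream of its 5′ end, and this stretch is called the gene's window.

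NuRD joins ATP-dependent nucleosome remodelling to the removal of acetyl groups from histones, and CoREST joins histone demethylation to deacetylation. Both are usually associated with low transcription of their target genes. In the worm, NuRD subunits act in the choice between germline and somatic fates and in vulval development, and several CoREST subunits were found through mutations that suppress the egg-laying defect of presenilin mutants. SAEG-2, the immunoprecipitated protein, works with its partner SAEG-1 in the pathway of the cGMP-dependent kinase EGL-4, together with the deacetylase HDA-2.

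The data were ChIP-seq peak lists from whole L4 larvae of strain RW12230, aged 48 h, that had been synchronised by bleaching and starvation at the L1 stage. In these animals the endogenous saeg-2 gene on chromosome III carried a CRISPR insertion, allele st12230, that adds TY1, EGFP and 3xFLAG to the protein, and an anti-GFP antibody was used for precipitation. Chromatin was sheared with a Bioruptor, with fragments of 200 to 800 bp. There were 2 biological replicates of this 1 group, no second genotype, age or treatment, and no control precipitation was analysed here. Because whole larvae were used, binding in a few cells and weak binding in many cells cannot be told apart.

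The deposited lists differ in stringency. A conservative list pooled from both replicates held 1145 peaks, a non-conservative pooled list held 1307, and separate lists for replicate 1 and replicate 2 held 452 and 541. A ranked list stood behind each of these and ran down to weak peaks, with 87308 entries for the conservative list, 113984 for the non-conservative list, 43050 for replicate 1 and 50310 for replicate 2. Each peak carried the authors' signal value, a score of at most 1000 and, in the ranked lists, an irreproducible discovery rate (IDR). A low IDR marks a peak that ranks consistently high in the peak sets compared. A high IDR can mark a weak peak as well as one ranked unlike. Read totals were not in these lists, so the sequencing depth behind the values is unknown. Signal values are compared here only within a list, and ranks are by signal value with 1 as the highest.

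In the conservative list, 4 of the 10 genes had a peak in their window: lin-53, rba-1, egl-27 and rcor-1. The share over all protein-coding genes was 5.31%. The 4 genes rested on 3 peaks, because lin-53 and rba-1 lie next to each other and share 1 peak. The non-conservative list added lin-40, for 5 genes and 4 peaks, against 6.10% of protein-coding genes. The replicate 1 list held a peak for lin-53 and rba-1 alone, 2 genes against 2.39% of protein-coding genes. The replicate 2 list held peaks for 3 genes, lin-53, rba-1 and egl-27, against 2.61%. When the ranked lists were read down to an IDR of 0.05, a limit chosen after the values were seen, 5 genes had a peak in the conservative ranked list against 9.88% of protein-coding genes. The non-conservative ranked list then gave 7 genes against 13.2%, with hda-1 and spr-1 added. The genes let-418, chd-3 and spr-5 had no peak at that limit in either ranked list.

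**Figure D1:**
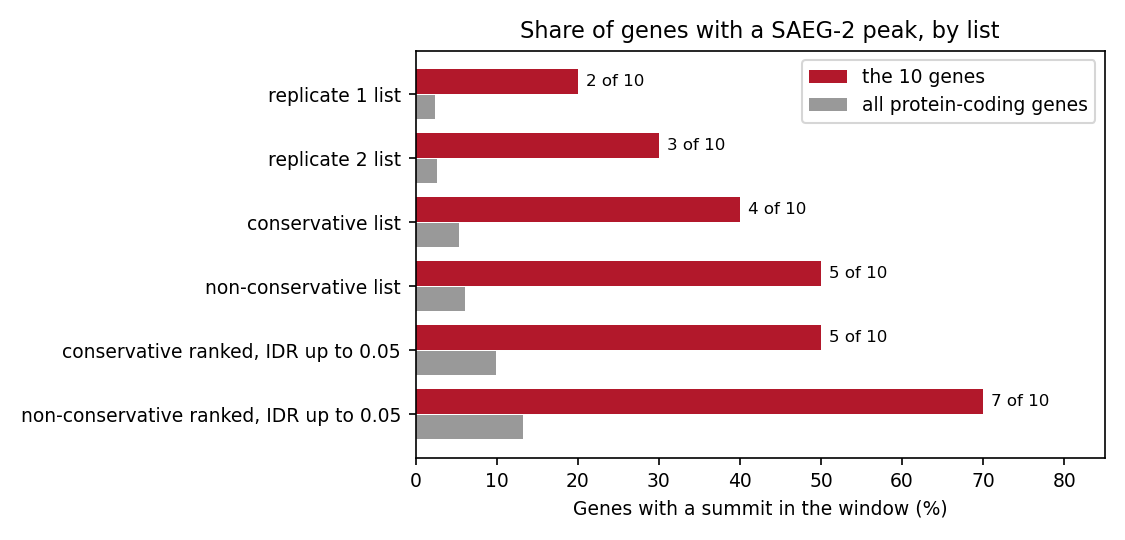
Percent of genes with a SAEG-2 peak summit in the gene or its 2000 bp upstream, for the 10 NuRD and CoREST genes (red, with the count) and for all 19973 protein-coding genes (grey), in 6 lists from the replicate lists at the top to the loosest pooled list at the bottom. The red bars rise from 2 of 10 to 7 of 10 and the grey bars from 2.39% to 13.2%; lin-53 and rba-1 share a peak and are both counted.

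Peaks were found more often in the longest windows, and the 10 genes differ in length. The windows of lin-53 (3565 bp), rba-1 (3592 bp) and hda-1 (4023 bp) were below the median over all protein-coding genes, and the other 7 were above it. The median window of the 10 genes was 8081 bp, against 4027 bp over all protein-coding genes. When all protein-coding genes were divided by window length into 10 classes of near-equal size, the share with a conservative peak was 2.65% in the class of lin-53 and rba-1, 3.76% in that of hda-1, 5.11% in that of spr-1 and 7.76% in that of let-418 and chd-3. It was 10.2% in the longest class, which held egl-27, lin-40, rcor-1 and spr-5. The mean of these shares over the 10 genes was 7.05%. Per length of DNA, the joined windows of the 10 genes covered 80.3 kb and held 3.74 conservative peaks per 100 kb, against 1.10 over the joined windows of all protein-coding genes. With 3 peaks, this density describes the 10 loci, and it was not tested.

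The histone-binding subunits LIN-53 and RBA-1 are a pair of retinoblastoma-binding protein homologues of the RbAp family, and LIN-53 is also found in other histone-modifying and chromatin assembly complexes. Their genes lie in tandem on the minus strand of chromosome I. lin-53 (WBGene00003036) spans 9618196 to 9619760, and rba-1 (WBGene00004312) spans 9616516 to 9618107. The peak they share ran from 9619844 to 9620147 with its summit at 9619996. In the conservative list it ranked 129 of 1145, with a signal value of 172. The score was at the cap of 1000 and the IDR was 8.99e-05. In the replicate lists its signal value was 87.4 in replicate 1, rank 107 of 452, and 81.7 in replicate 2, rank 184 of 541. This was the highest peak at any of the 10 genes in each of the 4 lists, and the only one that passed in the lists of both replicates.

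The shared peak lay 236 bp upstream of the 5′ end of lin-53 and 1889 bp upstream of that of rba-1. It was also 231 bp upstream of nra-2 (WBGene00011488), a divergent gene on the plus strand that encodes a nicalin homologue associated with nicotinic acetylcholine receptors. By distance, nra-2 was the nearest protein-coding gene to the pooled summit, while the main summit of replicate 2 lay nearest to lin-53, 209 bp away. Which of the genes the peak belongs to therefore cannot be told apart. It falls out of the window of rba-1 when the upstream part is 1000 bp. The summits in replicate 1 and replicate 2 were 35 bp and 27 bp from the pooled summit. Replicate 2 listed a second peak there, with its summit 411 bp upstream of lin-53 and 56 bp upstream of nra-2. The signal value of that second peak was 3.09, rank 538 of 541, although its score was 1000. The next peak within the lin-53 gene had a signal value of 43.8, lay in a coding exon 447 bp upstream of rba-1 and had an IDR of 0.479.

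The MTA proteins EGL-27 and LIN-40 are related scaffold subunits. EGL-27 is known for its part in cell polarity and migration, and LIN-40 for its part in vulval development. egl-27 (WBGene00001194) lies on chromosome II from 6835008 to 6847908 on the plus strand and has 24 annotated transcripts. Its conservative peak ran from 6842695 to 6842998 and lay in an intron, 7839 bp downstream of the gene's first 5′ end. An internal transcript start of egl-27 lay 443 bp upstream of the summit, and the snoRNA gene C04A2.16 began 393 bp downstream of it. The signal value was 102.5, rank 500 of 1145, with a score of 938 and an IDR of 0.00550. In replicate 2 the peak passed, with a signal value of 66.4 and rank 321 of 541. In replicate 1 it did not pass, and its ranked entry had a signal value of 32.3, rank 2806 of 43050, and a score of 151. The replicates thus placed this peak at different depths of their lists. The 50 bases on either side of its summit, with the summit base, at chrII:6842797-6842897 on the plus strand of ce11, are shown because this is the only conservative peak inside any of the 10 genes. The capital letter marks the summit base, and the sequence was read from the RefSeq copy of the assembly.
egl-27 intron: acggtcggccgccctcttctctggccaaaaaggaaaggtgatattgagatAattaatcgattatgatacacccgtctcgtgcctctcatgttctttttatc

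A weaker egl-27 peak lay 769 bp upstream of the gene, within an exon of the noncoding RNA gene C04A2.12. Its signal value was 59.7 and its IDR was 0.0271 in the conservative ranked list. Its signal values in the ranked lists of replicate 1 and replicate 2 were 34.1 and 31.6. The summit of this peak was also 239 bp upstream of the noncoding RNA gene C04A2.13 and 1250 bp upstream of another, C04A2.8. At the looser limit in the non-conservative ranked list, a coding exon of egl-27 held a further peak with a signal value of 57.0, which also fell in the window of tbc-6.

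lin-40 (WBGene00003025), on chromosome V from 3704988 to 3712796 on the plus strand, had a peak in the non-conservative list but not in the conservative list. The peak ran from 3707079 to 3707382, in a coding exon 2243 bp downstream of the 5′ end. Its signal value was 69.4, rank 1160 of 1307. The IDR was 0.00958 in the non-conservative ranked list and 0.0291 in the conservative one, on either side of the limit of 0.01. Its signal value was 38.3 in replicate 1, rank 1347 of 43050, and 29.98 in replicate 2, rank 6521 of 50310. Another entry, in a coding exon with a signal value of 52.6, passed the looser limit in the conservative ranked list alone. The protein-coding 5′ end nearest to that entry was that of nrsn-1, 5088 bp away. A summit also lay 943 bp upstream of lin-40 with a signal value of 60.5, an IDR of 0.127 in the conservative ranked list and an IDR of 0.0236 in the non-conservative one. The exonic summit with 50 bases on either side, at chrV:3707181-3707281 on the plus strand of ce11, holds 2 of the 6 short words searched, TGATAA and, farther along, CACGTG, both in capitals.
lin-40 coding exon: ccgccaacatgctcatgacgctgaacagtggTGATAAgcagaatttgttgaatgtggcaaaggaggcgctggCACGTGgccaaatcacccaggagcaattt

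LET-418 and CHD-3 are the Mi-2 ATPases that remodel nucleosomes in NuRD, and neither gene had a peak in any of the 4 lists. let-418 (WBGene00002637, chromosome V, 5826833 to 5832831, plus strand) had 7 entries in the conservative ranked list, all in coding exons and none upstream. The highest had a signal value of 61.97, rank 2638 of 87308, an IDR of 0.214 and a position 3472 bp into the gene. In the replicates this entry stood at rank 1459 of 43050 with a signal value of 37.5 and at rank 19188 of 50310 with a signal value of 22.0. A lower let-418 entry with a signal value of 40.5 also fell in the window of srh-76, which belongs to a chemoreceptor gene family. chd-3 (WBGene00000482, chromosome X, 12846439 to 12852601, minus strand) had 10 entries, and its highest signal value was 29.7, rank 34900, with an IDR of 0.362. Its replicate values were 23.6 and 19.2. With genes that had no entry counted as below, 26.1% of the protein-coding genes had a top entry below that of chd-3, and 88.4% below that of let-418. The chd-3 value was the lowest of the 10 genes.

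HDA-1 is a class I histone deacetylase and the catalytic deacetylase of NuRD. hda-1 (WBGene00001834) lies on chromosome V from 14525389 to 14527411 on the plus strand. Its highest entry, from 14525275 to 14525578, covered the 5′ end of the gene with its summit 38 bp downstream, in the first coding exon. The signal value was 64.5, rank 2212 of 87308. The IDR was 0.122 in the conservative ranked list and 0.0440 in the non-conservative one, so it was called at the looser limit in the second alone. Replicate 1 listed it with a signal value of 38.9, rank 1263 of 43050, and replicate 2 had no overlapping entry. A missing entry is not a measured value of 0, since each list ends at its own lowest peak. The same summit was 1298 bp upstream of ril-1 and 927 bp upstream of the noncoding RNA gene C53A5.18. The summit with 50 bases on either side, at chrV:14525377-14525477 on the plus strand of ce11, shows how close it lies to the start of the protein, and capitals mark the annotated start codon.
hda-1 5′ end: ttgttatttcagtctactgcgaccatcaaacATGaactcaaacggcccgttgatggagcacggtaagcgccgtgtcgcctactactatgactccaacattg

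**Figure D2:**
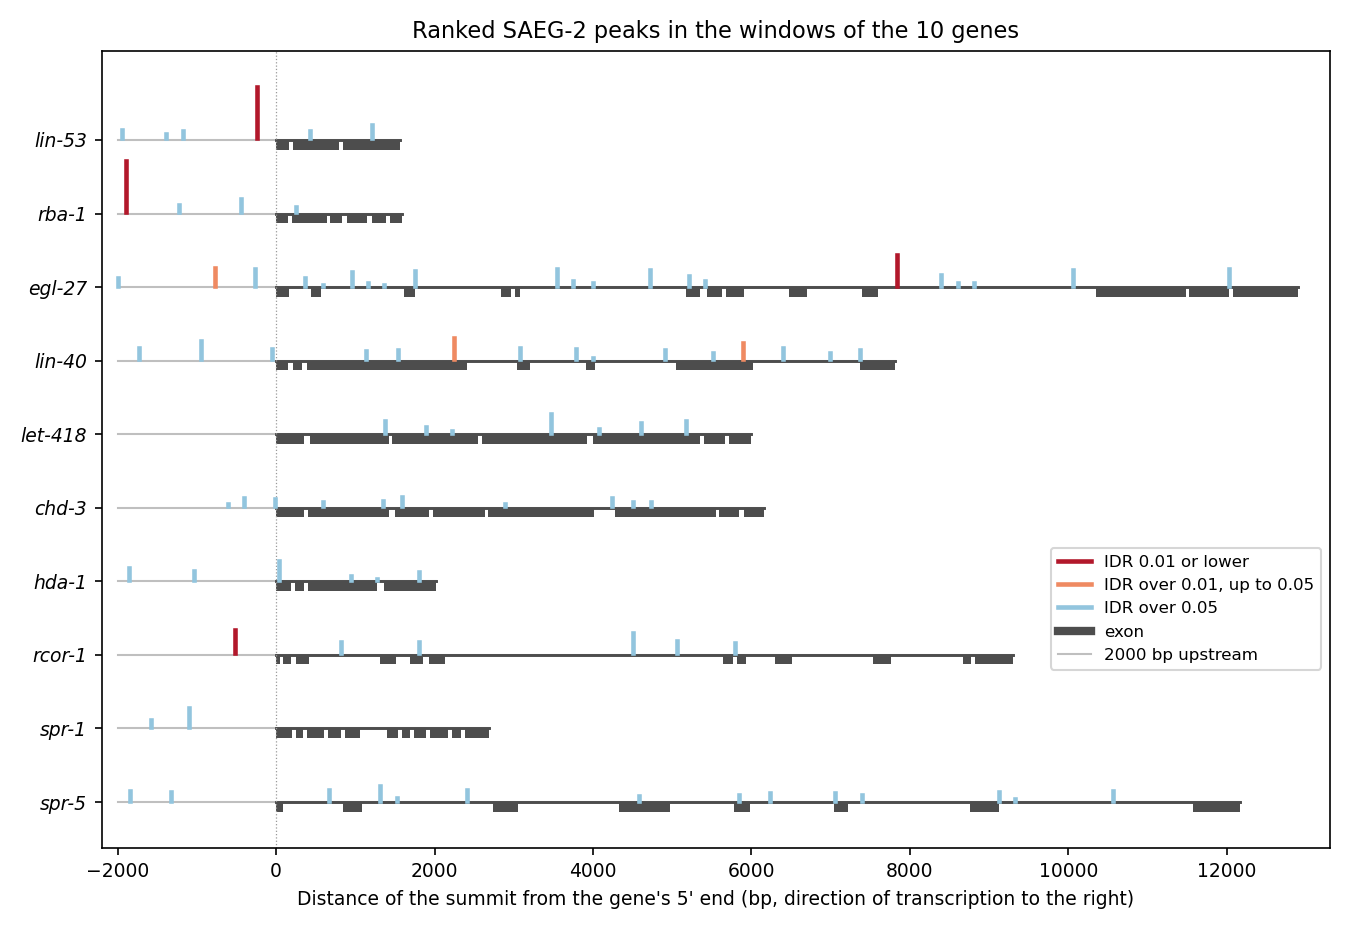
Positions of SAEG-2 peak summits along each of the 10 genes, as distance in bp from the gene's 5′ end with upstream to the left; the height of each line is the signal value in the conservative ranked list on a scale shared by all genes, and colours mark its IDR in that list. The lin-53 and rba-1 lines include the same peak, at 236 bp and 1889 bp upstream, the egl-27 peak lies 7839 bp inside its gene, and the rcor-1 peak lies 514 bp upstream.

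RCOR-1 and SPR-1 are homologues of the scaffold protein CoREST, and SPR-5 is its LSD-family demethylase, which removes methyl groups from histone H3. spr-1 (WBGene00005006), on chromosome V from 8126663 to 8129352 on the minus strand, had a highest entry with a signal value of 62.9, rank 2474 of 87308. It ran from 8130304 to 8130607. The IDR was 0.352 in the conservative ranked list and 0.0347 in the non-conservative one. Replicate 2 listed it with a signal value of 41.9, rank 1482 of 50310, and replicate 1 had no overlapping entry, the reverse of hda-1. Elsewhere in the window, replicate 1 listed a weak entry with its summit 95 bp upstream of spr-1. Its signal value was 17.6, rank 24108 of 43050. The summit of the highest entry lay 1104 bp upstream of spr-1 but 155 bp upstream of snap-1 (WBGene00017016). That divergent gene encodes an alpha-SNAP homologue that acts in membrane fusion. The 50 bases on either side of this summit, with the summit base, at chrV:8130406-8130506 on the plus strand of ce11, are shown because the nearest gene is not spr-1, and the capital marks the summit base.
upstream of spr-1 and snap-1: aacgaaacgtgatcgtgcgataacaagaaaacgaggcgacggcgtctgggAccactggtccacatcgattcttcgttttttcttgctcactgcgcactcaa

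rcor-1 (WBGene00022278) lies near the left end of chromosome I from 17484 to 26781 on the minus strand. Its conservative peak ran from 27143 to 27446 with its summit 514 bp upstream of the gene, and the summit lay in the window of no other gene. The signal value was 78.1, rank 926 of 1145, with a score of 898 and an IDR of 0.00685. Its signal value was 39.0 in replicate 1, rank 1252 of 43050, and 39.2 in replicate 2, rank 1960 of 50310. It passed in neither replicate list. This was also the case for 536 of the 1145 conservative peaks, or 46.8%. A second rcor-1 entry, in an intron 4500 bp into the gene, had a signal value of 67.9 and an IDR of 0.0557 in the conservative ranked list, and an IDR of 0.0306 in the non-conservative one. Its signal values in the replicates were 25.3 and 43.3.

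spr-5 (WBGene00005010), on chromosome I from 13438058 to 13450218 on the plus strand, had 14 entries in the conservative ranked list and no peak in the 4 lists. The highest, in an intron 1315 bp into the gene, had a signal value of 48.7, rank 7638 of 87308, and an IDR of 0.599. The replicates gave 33.2, rank 2504 of 43050, and 16.1, rank 33221 of 50310. Among protein-coding genes of its own length class, 41.5% had a lower top entry, with genes that had no entry counted as below. No entry in spr-5 passed the looser limit.

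In the conservative ranked list, the top signal values of the 10 genes put the 4 genes with a conservative peak first. This order is partly built in, because all 1145 conservative peaks come from this ranked list. They were limited to a low IDR, which marks peaks of consistently high rank. After the peaks of lin-53 and rba-1 (172), egl-27 (102.5) and rcor-1 (78.1) came lin-40 at 69.4, hda-1 at 64.5, spr-1 at 62.9, let-418 at 61.97, spr-5 at 48.7 and chd-3 at 29.7. The median over the 10 genes, with the peak shared by lin-53 and rba-1 counted for both, was 66.9. Over the 17555 protein-coding genes with an entry in their window it was 42.3. The 10 genes were also set against genes of their own length class, with genes that had no entry counted as below. In these classes, 99.5% had a top entry below that of lin-53, 95.2% below egl-27, 92.9% below hda-1 and 89.6% below rcor-1. The share was 89.1% below spr-1, 85.2% below lin-40, 82.3% below let-418 and 12.3% below chd-3. The number of entries per kb of window had a median of 1.17 over the 10 genes and 0.909 over all protein-coding genes. The entries of lin-40, hda-1, spr-1 and let-418 lie between 61.97 and 69.4. Their ranks in the replicates did not keep that order, and their differences were not tested.

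**Figure D3:**
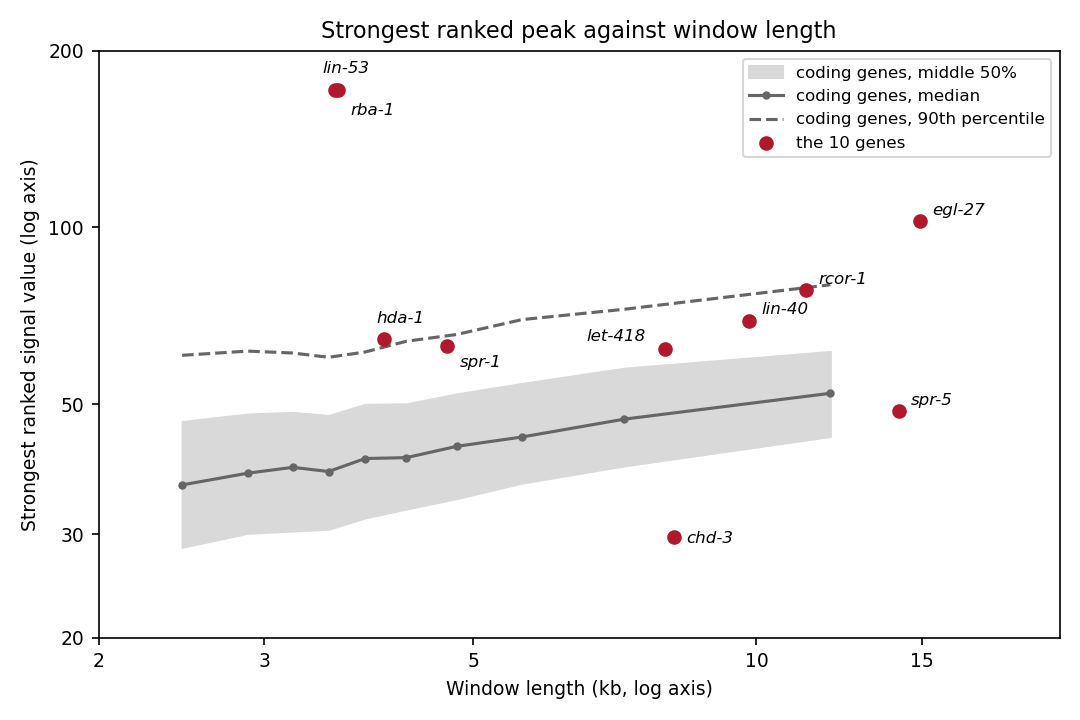
Highest signal value in the conservative ranked list (log axis) against window length in kb (log axis) for the 10 genes (red). Grey marks the median, middle 50% and 90th percentile of protein-coding genes with an entry in the 10 length classes. The lin-53 and rba-1 peak (172) lies far above genes of like length, hda-1 (64.5) just above the 90th percentile, and chd-3 (29.7) below the middle 50%. Also above the 90th percentile of its class (79.9) is egl-27 (102.5).

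Of the 1145 conservative peaks, 1129 overlapped an entry in the ranked lists of both replicates, and so did the peaks of lin-53, egl-27 and rcor-1. Among the 1701 entries ranked from 1500 to 3200, a band chosen after the values were seen that holds lin-40, hda-1, spr-1 and let-418, 1474 overlapped an entry in both replicates (86.7%). In that band 91 overlapped one in replicate 1 alone, as hda-1 did, and 133 in replicate 2 alone, as spr-1 did.

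**Figure D4:**
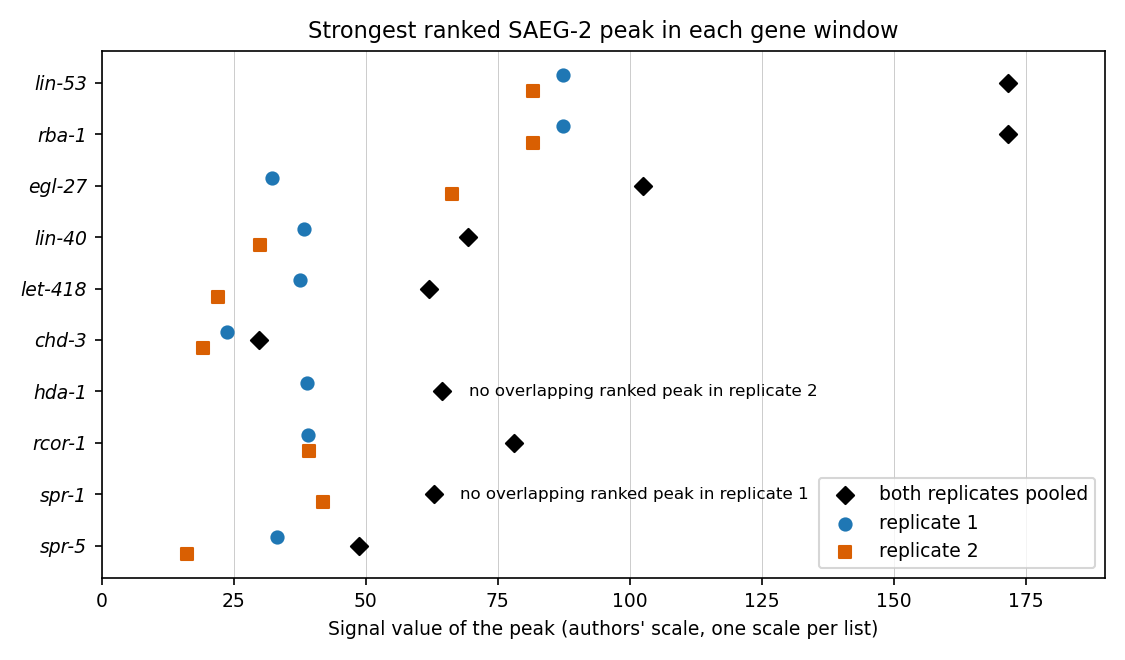
Signal value of the highest peak of each of the 10 genes in the conservative ranked list (diamonds) and of the overlapping peak in the ranked lists of replicate 1 (circles) and replicate 2 (squares); each list has its own scale. The pooled values run from 29.7 at chd-3 to 172 at lin-53 and rba-1, egl-27 has 32.3 in replicate 1 and 66.4 in replicate 2, rcor-1 has 39.0 and 39.2, and hda-1 and spr-1 have an entry in 1 replicate each.

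The base composition of the peaks at these genes varied. Over each summit base and the 50 bases on either side, the G+C content was 56.4% at lin-53, 44.6% at egl-27 and 28.7% at rcor-1, against a median of 48.5% over the conservative peaks. Of the conservative peaks, 1.75% were lower than rcor-1. For the same stretch, 6 words were searched on both strands, without removing overlaps between words. TTTGAA occurred once at the lin-53 peak and 2 times at the rcor-1 peak, and was present at 13.0% of conservative peaks. TGATAA was present at 10.6% of them and CACGTG, which reads the same on both strands, at 6.38%. Both occurred at the top entry of lin-40 and at the weaker egl-27 peak 769 bp upstream of that gene. GAGAGA was present at 17.6% of conservative peaks, GGCGGGAA at 0.437% and TTCTAGAA at 0.961%, and none of these occurred at the top entry of any of the 10 genes. At the second-highest entries, GAGAGA occurred 2 times at lin-40 and 1 time at spr-5, and TTTGAA 1 time each at chd-3, rcor-1 and spr-1. The top entries at egl-27, let-418, chd-3, hda-1, spr-1 and spr-5 held none of the 6 words. A match describes these letters and is not evidence of a bound factor. The top entries of the 10 genes were not close to tRNA genes. The nearest tRNA gene lay 3834 bp away at chd-3, 10357 bp at egl-27, 14159 bp at lin-53 and farther at the others.

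Of 18 other genes of the same complexes and of the SAEG-2 pathway, 1 had a conservative peak, a share near the 5.31% of all protein-coding genes. This was saeg-1 (WBGene00010012), whose product is the partner of SAEG-2. Its 2 conservative peaks lay in introns, 7108 bp and 10174 bp into the gene. Their signal values were 302 and 101.2, at ranks 26 and 512 of 1145. The highest signal value at saeg-1 was 131 in the replicate 1 list and 175 in the replicate 2 list. The gene for MEP-1, a zinc-finger protein that works with LET-418, had peaks in the non-conservative list but in none of the other 3, with signal values of 85.8 and 74.9 at 202 bp and 1864 bp upstream. That list thus held 2 of the 18 genes, against 6.10% of protein-coding genes. The class I deacetylase gene hda-3 was added at the looser limit with a signal value of 60.7, for 3 of the 18 genes in either pooled ranked list, against 9.88% of protein-coding genes in the conservative one and 13.2% in the non-conservative one. The remaining 15 genes, among them hda-2, the NuRD genes dcp-66 and mbd-2, sin-3 of the SIN3 complex, the second LSD-family gene lsd-1 and saeg-2 itself, had top entries with signal values from 18.4 to 55.5 and no peak in the 4 lists.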

How the data were processed

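ChIP-seq peaks of tagged SAEG-2 were analysed in 1 group of 2 biological replicates of whole L4 larvae. The authors deposited ENCODE peak lists on ce11. Pooled lists derive from both replicates and replicate lists from 1 sample each, per the notes deposited with the samples. No source used here gives the aligner or peak caller, and 2 replicates with no control analysed here allow no test between conditions. Each deposited peak has a score (at most 1000), a signal value whose scale is not stated, a summit, and a −log10 of the IDR in the ranked lists (at most 5). All peaks in the thresholded lists had an IDR of at most 0.01 in their ranked lists. Of the 1203 conservative ranked peaks at that IDR, 58 were not in the conservative list, and none of these lay in a window of the 10 genes.

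Gene spans came from Ensembl release 115 and sequences from the RefSeq copy of the same assembly. A gene was called where a summit lay in its span or the 2000 bp upstream. The share of all 19973 protein-coding genes called in the same way was computed for each list and setting. No test over the 10 genes was made, because they are not replicates. Overlap between lists required 1 bp. The genes named are the 10, the genes that share a window or lie nearest to a summit described at the 10, and genes among 18 others of the pathway. Those 18 were counted as a list, with values for those with a peak. Neighbours of the peaks at the 18 genes are not given. The 10 genes and the lists were chosen with earlier results of these data known. The window assignment was tested on simulated peaks at known places. Python 3.11.15, pandas 2.3.3, numpy 2.4.6, pysam 0.24.0 and matplotlib 3.10.9 were used.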

Additional observations from a re-analysis of the deposited data

How the results depend on the processing

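The count of 4 genes, 3 peaks and a background of 5.31% stayed within 1.5 times in the non-conservative list, at an IDR of 0.01 in the conservative ranked list, with 1000 bp upstream (3 genes, rba-1 lost) and with any overlap of 1 bp. With a single replicate the count was 2 to 3 genes, 1 to 3 peaks and a background of 2.39% to 2.61%. It was 2 genes with 500 bp upstream (lin-53 and egl-27, background 3.56%), 2 with the nearest protein-coding 5′ end alone (egl-27 and rcor-1, background 4.71%), and 1 gene and 1 peak in the gene span alone (egl-27, background 1.89%). Among the peaks above the median signal value it was 3 genes (background 2.93%). At an IDR of 0.05, chosen after seeing the data, the conservative ranked list gave 6 peaks (background 9.88%) and the non-conservative one 7 genes and 10 peaks (13.2%). No paired analysis was possible because there is 1 group. With 2 replicates and unknown depth, a gene without a listed peak is not shown to be unbound.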
